A study of Mus musculus with 2 samples.

Results

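The respiratory chain genes are the genes for the subunits of the 5 enzyme complexes of oxidative phosphorylation, encoded in the nucleus or on mitochondrial DNA. They were chosen by symbol: names beginning with Nduf (complex I), Sdha to Sdhd (complex II), Uqcr (complex III), Cox4 to Cox8 (complex IV) and Atp5 (complex V), together with the protein genes of mitochondrial DNA and leaving out pseudogenes. This gave 105 members of 28000 features, of which 92 were nuclear and 13 mitochondrial. Subunit genes with other names are missed, such as Cyc1 of complex III, which was listed with the electron carriers. Of the nuclear members, 82 are subunits and 10 are assembly or supercomplex factors that share the names (Ndufaf1 to Ndufaf7, Cox7a2l, Atp5s and Atp5sl). Ndufa4 and Ndufa4l2 carry complex I names and were counted with complex IV, where the protein of Ndufa4 sits.

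The members were read in smooth muscle cells (SMCs) from the thoracic aorta of male C57BL/6 mice aged 24 weeks, with 1 library per genotype. Mice labelled KO (Tsc1-/-) carried floxed Tsc1, the recombinase Myh11-CreERT2 and the mT/mG reporter. Mice labelled control (Tsc1+/+) carried the same recombinase and reporter without the floxed gene. Both groups received tamoxifen at 1.5 weeks of age, so both had an activated recombinase, which is driven by the promoter of the smooth muscle myosin gene Myh11. In cells where the recombinase has acted, the reporter makes eGFP in place of tdTomato, and viable GFP-positive cells were sorted for droplet RNA sequencing. Tsc1 encodes hamartin, which with tuberin restrains the kinase complex mTORC1. The number of animals behind a library is not stated in the sources used.

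Complexes I and II take electrons from NADH and succinate, complex III passes them to cytochrome c, and complex IV hands them to oxygen. Complexes I, III and IV pump protons, and complex V, the ATP synthase, lets the protons flow back to make ATP. Mitochondrial DNA supplies the proton-pumping core of complexes I and IV, cytochrome b of complex III and part of the proton channel of complex V, while every subunit of complex II comes from nuclear genes. Several complex IV subunits have a widely used form and a second form known from particular tissues, such as Cox6b2 from testis, Cox8b from striated muscle and brown fat, and Cox4i2 from lung.

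Cells were kept with at least 5 eGFP UMIs, at least 500 genes and no more than 10% of UMIs from mitochondrial genes. A UMI marks 1 captured RNA molecule, so that PCR copies count once. This left 1919 of 2097 cells with 30778165 UMIs in the KO library and 1692 of 2095 cells with 20011501 UMIs in the control library. The median cell held 15012 UMIs in KO and 11665 UMIs in control, 1.29 times as many in KO. Only 4 cell barcodes were shared by the kept cells of the libraries. Tsc1 itself had 8.55 CPM (UMIs per 1000000 UMIs of the kept cells) in KO and 9.54 CPM in control, a ratio of 0.895 (0.740 to 1.08). The counted end of the transcript may lie outside the deleted part, so this does not check the labels. All 8 SMC markers were found in both libraries, at a sum of 18332 CPM in KO and 37570 CPM in control. The 5 markers of modulated SMCs summed to 1539 CPM in KO and 42.1 CPM in control, with Spp1 at 0 in control. The 7 macrophage markers summed to 13.8 CPM in KO and 14.8 CPM in control, with Adgre1 at 0 in both libraries and C1qa at 0 in KO, and the 6 dissociation stress genes to 5851 CPM in KO and 10949 CPM in control. Whether these shifts in SMC state and stress genes had a part in the values below was not tested, other than by range of contractile share. Each genotype had 1 library, so there was no test and no replicate check. Every bracketed range is a 95% interval that covers counting error only, and intervals of adjacent values in 1 library say nothing about differences between animals.

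The nuclear subunits together differed little between the libraries, the mitochondrial genes were higher in KO, and single complexes differed in direction. The 82 nuclear subunit genes summed to 24958 CPM in KO and 24578 CPM in control, a ratio of 1.02 (1.01 to 1.02). The 13 mitochondrial genes summed to 56865 CPM in KO and 48546 CPM in control, a ratio of 1.17 (1.168 to 1.174). Of the 105 members, 87 reached 50 CPM in at least 1 library, 75 of them nuclear, and 18 did not. Past 1.5-fold, 2 of these 87 were higher (Cox5a and Cox6b2) and 0 were lower, 2.30% in all, whereas 26.3% of the 3019 genes at this level were past that fold (12.1% higher and 14.2% lower). Past 1.2-fold, 15 were higher and 13 were lower, 32.2% in all, against 55.9% of all genes (26.2% higher and 29.7% lower). With the 20 most abundant genes left out of the total, the split of all genes turned to 32.7% higher and 22.8% lower past 1.2-fold, and 27 members were higher. The median log2 ratio was 0.02 over the members and -0.04 over all genes. The quartiles were -0.21 and 0.20 over the members and -0.34 and 0.28 over all genes. Over all kept cells the members thus lay closer to a ratio of 1 than genes at this level in general. The medians moved apart when the mix of contractile shares was made alike. With KO cells weighted to the control mix they were 0.26 over the members and -0.02 over all genes. With control cells weighted to the KO mix they were 0.20 and -0.11. Cox6b2 reached the minimum in KO only, so it had to differ. Of the 105 members, 35 overlap another counted gene, 9 of them on the same strand. Whether the counting used strand is not stated, so these counts are less certain. They include Ndufs1 (with Eef1b2), Ndufb6 (with Smim27), Ndufa3 (with Tfpt), Ndufa11 (with Vmac) and Cox4i1 (with Emc8), but not Cox6b2, Cox8b, Cox4i2 or Cox5b.

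**Figure D1:**
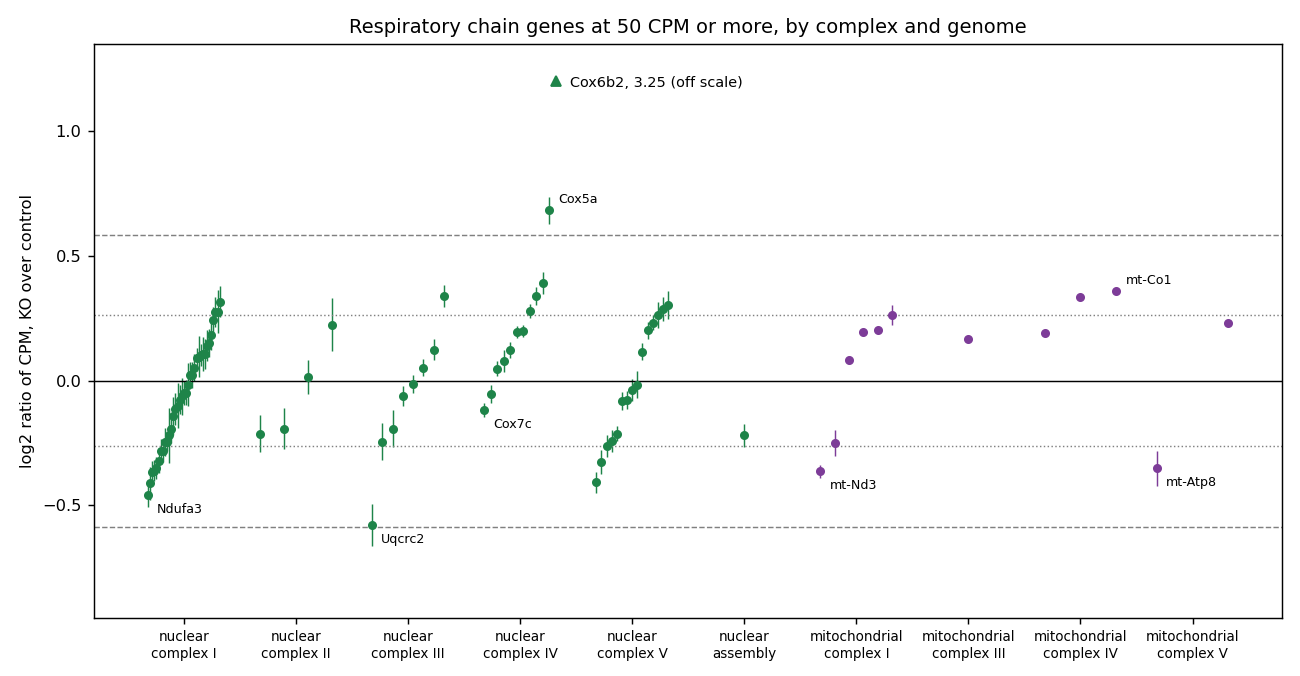
Log2 ratio of CPM, KO over control (vertical axis), for the 87 members at 50 CPM or more in at least 1 library, by complex and genome. Each point is a gene, bars are 95% counting intervals, dotted lines mark 1.2-fold and dashed lines 1.5-fold; the triangle for Cox6b2 stands for a value off the scale, 3.25. Nuclear complex IV lies mostly above 0, while complex I spreads on both sides of it.

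Complex IV, cytochrome c oxidase, had the highest summed ratio of the complexes in either genome. Its nuclear genes summed to 7892 CPM in KO and 7009 CPM in control, a ratio of 1.13 (1.12 to 1.13), and to a ratio of 1.12 without Cox6b2. Of the 12 at 50 CPM or more, 5 were higher past 1.2-fold and 0 were lower. A ratio above 1 was found for 10 of 12, against 1410 of all 3019 genes at this level. Of all genes at this level, 26.2% were higher and 29.7% lower past 1.2-fold. Without Cox6b2, 4 of 11 were higher past 1.2-fold. The complex made up 31.6% of all nuclear subunit UMIs in KO and 28.5% in control. In the same sum complex I made up 31.1% in KO and 33.5% in control, so the order of complexes I and IV by share was reversed between the libraries.

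Cox5a, a matrix-facing subunit that assembles early with Cox4, had 320 CPM in KO and 199 CPM in control (9839 UMIs in KO and 3986 in control), a log2 ratio of 0.68 and a ratio of 1.60 (1.55 to 1.67). At a common depth of 5000 UMIs per cell a Cox5a UMI was found in 74.97% (73.0 to 76.9) of KO cells and 63.5% (61.1 to 65.9) of control cells; unthinned, in 95.05% of KO cells and 84.2% of control cells. In eGFP-negative control cells, which were not kept, the share at that depth was 78.6% (67.1 to 87.5) of 70 cells, at or above both values, and Cox5a stood at 374 CPM over 339 such cells. The gene is thus common to cells of either kind, and no difference in the number of expressing cells is read from these shares.

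Cox5b, the zinc-binding matrix subunit, had 431 CPM in KO and 328 CPM in control (log2 0.39). Cox6b1, which joins the dimer on the intermembrane side, had 551 CPM in KO and 436 CPM in control (log2 0.34). Cox8a, a small membrane subunit, had 1004 CPM in KO and 827 CPM in control (log2 0.28). These 3 were higher past 1.2-fold, each with a ratio under that of Cox5a. The regulatory subunit Cox4i1, the most abundant by mean CPM, had 1257 CPM in KO and 1099 CPM in control, a ratio of 1.14. Cox6c had 1201 CPM in KO and 1045 CPM in control, a ratio of 1.15. At the low end Cox7c had 804 CPM in KO and 872 CPM in control (log2 -0.12), Cox7a2 520 CPM in KO and 539 CPM in control, and Cox6a1 725 CPM in KO and 701 CPM in control. The range within the complex thus ran from slightly lower in KO to 1.60, with Cox6b2 apart from the rest.

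Second forms of complex IV subunits, Cox6b2, Cox8b and Cox4i2, differed more between the libraries than Cox5a did. Cox6b2 (chromosome 7, 4751792 to 4753094, mm10) had 1946 UMIs and 63.2 CPM in KO and 133 UMIs and 6.65 CPM in control, a ratio of 9.51 (7.98 to 11.4). With control cells weighted to the KO mix of contractile gene shares, an alternative chosen after seeing the data, the ratio was 3.27. That value leans on 21 control cells with 5 Cox6b2 UMIs. It made up 10.3% (9.86 to 10.7) of Cox6b UMIs in KO and 1.50% (1.26 to 1.78) in control. At 5000 UMIs per cell, 16.9% (15.2 to 18.6) of KO cells and 2.81% (2.06 to 3.74) of control cells had a Cox6b2 UMI; unthinned, 33.9% of KO cells and 5.91% of control cells did. In eGFP-negative control cells the share was 2 of 70 cells thinned, 2.86% (0.348 to 9.94), and 4.13% of 339 unthinned cells with a median of 3756 UMIs. The control share at equal depth cannot be told apart from that share, which rests on 2 cells, and the interval of the KO share lay above both. Single KO cells reached 43 Cox6b2 UMIs, against at most 6 in a control cell.

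Cox8b (chromosome 7, 140898945 to 140900446) had 248 UMIs and 8.06 CPM in KO and 0 UMIs in control. A count of 0 allows up to 0.150 CPM in control, and against that floor KO was at least 53.7-fold higher. With the counting error of the KO value included, the lower limit of the ratio was 43.4. Its UMIs came from 112 of 1919 KO cells, 5.84% (4.83 to 6.98), and from 0 of 1692 control cells, which by the same floor of 3 counts allows a share of up to 0.177% of cells with a UMI, with an exact upper limit of 0.218%. Thinned, the shares were 2.26% in KO and 0 in control, and 0 of 339 eGFP-negative control cells held a UMI. Cox8b was thus a minor form, at 0.796% (0.701 to 0.901) of Cox8 UMIs in KO, carried by few cells. The shares of cells with Cox6b2 overlapped within counting error in KO cells with and without Cox8b: 39 of 112 KO cells with a Cox8b UMI had Cox6b2, 34.8% (26.1 to 44.4), against 611 of 1807 KO cells without, 33.8% (31.6 to 36.0). Thinned, the shares were 11.6% (3.89 to 25.1) of 43 cells with Cox8b and 17.0% (15.3 to 18.8) of 1859 cells without. Markers of the other tissues known for Cox8b were also summed, and both sums in KO lay above the 8.06 CPM of Cox8b. The 3 brown adipocyte markers summed to 13.7 CPM in KO and 31.2 CPM in control. The 5 cardiac and skeletal muscle markers summed to 171 CPM in KO and 82.7 CPM in control, but 1 gene in each library reached 10 CPM and Myh6 was at 0 in KO. The part of such cells in the Cox8b value was not tested.

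Cox4i2 (chromosome 2, 152754173 to 152765037) went the other way, below the 50 CPM minimum. It had 407 UMIs and 13.2 CPM in KO and 632 UMIs and 31.6 CPM in control, a ratio of 0.419 (0.369 to 0.475). Its share of Cox4 UMIs was 1.04% in KO and 2.79% in control. Thinned, 6.10% (5.07 to 7.27) of KO cells and 12.8% (11.2 to 14.5) of control cells had a UMI; unthinned, 14.3% of KO cells and 23.7% of control cells did. None was counted in the 339 eGFP-negative control cells. The 5 pericyte markers, which some SMCs also express, summed to 493 CPM in KO and 1027 CPM in control, and their part in the Cox4i2 value was not tested. The other second forms were near absent in both libraries: Cox7a1 had 79 UMIs in KO and 56 in control, Cox7b2 had 3 in KO and 2 in control, Cox6a2 1 in each and Cox8c 0 in each. Ndufa4l2, known as a hypoxia-induced relative of Ndufa4, had 18 UMIs in 9 KO cells and 2 UMIs in the control library.

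The promoters of the paired forms are printed because the libraries differ in how much of each form they hold. They are RefSeq sequences of build GRCm38.p6 that run from 250 bases before to 50 bases after each start, in the direction of the gene, all on the minus strand. Capitals mark CpG dinucleotides. The positions are chr7:4753045-4753344 for Cox6b2, chr7:30626065-30626364 for Cox6b1, chr7:140900397-140900696 for Cox8b and chr19:7217567-7217866 for Cox8a.
Cox6b2: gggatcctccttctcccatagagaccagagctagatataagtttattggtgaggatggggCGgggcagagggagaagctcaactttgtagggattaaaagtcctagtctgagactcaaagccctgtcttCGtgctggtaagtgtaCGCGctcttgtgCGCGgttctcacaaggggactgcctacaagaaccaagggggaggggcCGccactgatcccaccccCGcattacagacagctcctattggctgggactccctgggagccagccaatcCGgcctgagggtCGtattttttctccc
Cox6b1: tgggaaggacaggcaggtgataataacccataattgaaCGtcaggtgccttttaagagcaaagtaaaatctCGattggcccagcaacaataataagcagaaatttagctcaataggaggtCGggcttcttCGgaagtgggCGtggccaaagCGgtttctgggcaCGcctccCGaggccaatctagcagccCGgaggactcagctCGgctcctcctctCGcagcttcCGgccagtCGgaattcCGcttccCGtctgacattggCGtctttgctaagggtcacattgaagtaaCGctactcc
Cox8b: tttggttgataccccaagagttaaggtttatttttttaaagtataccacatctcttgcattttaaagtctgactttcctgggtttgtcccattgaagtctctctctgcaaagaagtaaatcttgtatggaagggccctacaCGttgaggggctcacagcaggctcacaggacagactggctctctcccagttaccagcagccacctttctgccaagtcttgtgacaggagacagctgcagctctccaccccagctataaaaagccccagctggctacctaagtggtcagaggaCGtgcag
Cox8a: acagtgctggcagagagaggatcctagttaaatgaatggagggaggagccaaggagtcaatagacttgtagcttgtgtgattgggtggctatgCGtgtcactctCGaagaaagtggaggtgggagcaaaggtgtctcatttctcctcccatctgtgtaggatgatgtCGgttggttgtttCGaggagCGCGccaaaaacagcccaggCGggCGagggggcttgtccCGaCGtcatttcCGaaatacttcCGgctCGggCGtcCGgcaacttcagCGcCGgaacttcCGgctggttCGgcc
The second forms hold fewer CpGs than their common partners. Cox6b2 has 10 and Cox6b1 17, and Cox8b has 2 and Cox8a 19, with a median of 19 over the nuclear members' promoters and 7 over all promoters. The ETS letters CCGGAAG (either strand) occur in the windows of Cox6b1 and Cox8a. None of the 5 motifs searched occurs in those of Cox6b2 and Cox8b, which says only that these letters are not in these windows.

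Complex I, NADH dehydrogenase, summed lower from the nuclear genome. Its 36 nuclear genes summed to 7758 CPM in KO and 8243 CPM in control, a ratio of 0.941 (0.935 to 0.947). Of the 35 at 50 CPM or more, 3 were higher and 8 lower past 1.2-fold, and the median log2 ratio was -0.05. Of all genes at this level, 26.2% were higher and 29.7% lower past that fold. Lower genes were thus no more frequent in the complex than among all genes. By module, the NADH-oxidising N module summed to a ratio of 0.867 (0.857 to 0.877), the quinone-reducing Q module to 0.918 (0.899 to 0.937) and the proton-pumping P module to 0.983 (0.975 to 0.991). The modules therefore differed in the sum, with the N module farthest below 1. Among its 9 genes at 50 CPM or more, 4 were lower past 1.2-fold and 1 was higher, against 29.7% and 26.2% of all genes.

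Ndufv2, which carries an iron-sulfur cluster in the N module, had 126 CPM in KO and 168 CPM in control (log2 -0.41). The accessory subunit Ndufa2, the most abundant of the complex by mean CPM, had 472 CPM in KO and 559 CPM in control (log2 -0.24). Ndufs1, the largest core subunit of the N module, had 26.3 CPM in KO and 37.5 CPM in control, a ratio of 0.700 (0.633 to 0.775), below the minimum level. The gene of the module that was higher past 1.2-fold was Ndufs4, known for its loss in Leigh syndrome, with 103 CPM in KO and 84.8 CPM in control (log2 0.28). Among membrane arm genes, Ndufa3 had 232 CPM in KO and 318 CPM in control (log2 -0.46), the lowest ratio of the complex at this level. Ndufa11, a membrane subunit at the contact with complex III, had 291 CPM in KO and 375 CPM in control (log2 -0.37). In the same arm Ndufb4 had 196 CPM in KO and 157 CPM in control (log2 0.32), and Ndufb6 215 CPM in KO and 177 CPM in control (log2 0.28). Subunits of 1 arm thus differed in direction.

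Complex II, succinate dehydrogenase, showed no gene past 1.2-fold over all cells, where its 4 genes summed to a ratio of 0.954 (0.929 to 0.981). The catalytic subunits had ratios under 1: the flavoprotein gene Sdha had 88.6 CPM in KO and 101.2 CPM in control, a ratio of 0.875 (0.826 to 0.928), and the iron-sulfur subunit gene Sdhb 113 CPM in KO and 131 CPM in control, a ratio of 0.863 (0.820 to 0.908). The membrane anchors did not: Sdhc had 146 CPM in KO and 145 CPM in control, and Sdhd 63.8 CPM in KO and 54.6 CPM in control, a ratio of 1.17 (1.09 to 1.26). With KO cells weighted to the control mix of contractile shares the sum stood at 1.19, Sdhc at 1.33, Sdhd at 1.40 and Sdha at 0.981. With control cells weighted to the KO mix, which leans on 21 control cells, these values were 1.03, 1.34, 1.04 and 0.797.

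Complex III, cytochrome bc1, summed to 2627 CPM in KO and 2584 CPM in control from its 8 nuclear members, a ratio of 1.02 (1.01 to 1.03). This sum leaves out Cyc1, the gene of cytochrome c1. Uqcrc2, a core protein facing the matrix, had 77.5 CPM in KO and 116 CPM in control, 1.49 times lower in KO (log2 -0.58) and just short of the 1.5-fold limit. Thinned, 31.9% of KO cells and 43.6% of control cells had a Uqcrc2 UMI; unthinned, 64.7% of KO cells and 70.7% of control cells did. In eGFP-negative control cells the thinned share was 31.4% (20.9 to 43.6) of 70 cells, which overlaps the KO share, so no difference in the number of expressing cells is read from these shares. Uqcrq, a small subunit bound to cytochrome b, had 405 CPM in KO and 320 CPM in control (log2 0.34). The Rieske iron-sulfur protein gene Uqcrfs1 had 106 CPM in KO and 126 CPM in control, and Uqcrc1, the other core protein, 116 CPM in KO and 133 CPM in control. The most abundant member by mean CPM, the hinge protein gene Uqcrh, had 621 CPM in KO and 599 CPM in control. Both core proteins and the Rieske protein had ratios under 1 over all cells, and Uqcrq lay above. The direction turned with KO cells weighted to the control mix of contractile shares for Uqcrc1, at 1.202, and for Uqcrfs1, at 1.04, while Uqcrc2 stood at 0.913.

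Complex V summed to 6269 CPM in KO and 6312 CPM in control from its 15 nuclear genes, a ratio of 0.993 (0.986 to 1.0003), but its parts differed. The 5 genes of the catalytic F1 head all had ratios below 1 over all cells, as had 1609 of the 3019 genes at 50 CPM or more. They summed to 0.886 (0.875 to 0.897). The 4 genes of the peripheral stalk summed to 1.11 (1.10 to 1.13), the 3 of the c ring to 1.05 (1.03 to 1.07) and the other 3 membrane genes to 1.001. In the head, the gamma subunit gene Atp5c1 had 257 CPM in KO and 322 CPM in control (log2 -0.33) and the alpha subunit gene Atp5a1 316 CPM in KO and 379 CPM in control (log2 -0.26). With KO cells weighted to the control mix of contractile shares Atp5a1 had a ratio of 1.08 and Atp5c1 0.973. With control cells weighted to the KO mix, which leans on 21 control cells, they had 1.02 and 1.03. Atp5a1 thus turned in direction and Atp5c1 moved to either side of 1. In the stalk, Atp5o, known for oligomycin sensitivity, had 240 CPM in KO and 194 CPM in control (log2 0.31). In the membrane, Atp5k, the e subunit involved in dimers, had 305 CPM in KO and 405 CPM in control (log2 -0.41), the lowest ratio of the complex. Atp5l, the g subunit, had 857 CPM in KO and 730 CPM in control (log2 0.23), so subunits e and g differed in direction.

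The c ring is made of 1 protein encoded by 3 genes, and their proportions differed. Atp5g1 gave 36.5% (36.0 to 37.1) of their UMIs in KO and 31.5% (30.8 to 32.1) in control. Atp5g2 gave 35.5% (35.0 to 36.1) in KO and 44.1% (43.4 to 44.8) in control, and Atp5g3 28.0% in KO and 24.4% in control. Atp5g2 led in control, while Atp5g1 and Atp5g2 were nearly level in KO. Of the assembly and supercomplex factors, 1 of 10 reached 50 CPM: Cox7a2l, with 306 CPM in KO and 357 CPM in control, a ratio of 0.859 (0.833 to 0.886). Below that level the complex I assembly factor Ndufaf4 had 41.0 CPM in KO and 30.6 CPM in control, a ratio of 1.34 (1.22 to 1.48), and Ndufaf3 40.1 CPM in KO and 48.5 CPM in control, a ratio of 0.827.

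Most of the mitochondrial genes had a ratio above 1. Of the 13, 12 were at 50 CPM or more, and of these 9 had a ratio above 1, against 1410 of all 3019 genes at this level. Past 1.2-fold, 3 of the 12 were higher and 2 lower, against 26.2% and 29.7% of all genes, so neither call was more frequent than among all genes. The complex IV genes led: mt-Co1, the subunit with the oxygen-reducing centre, had 8164 CPM in KO and 6362 CPM in control (log2 0.36). The copper subunit gene mt-Co2 had 5081 CPM in KO and 4454 CPM in control (log2 0.19), and mt-Co3 10758 CPM in KO and 8530 CPM in control (log2 0.33). Together they summed to a ratio of 1.24 (1.24 to 1.25) and made up 42.2% of mitochondrial subunit UMIs in KO and 39.9% in control. Each of the 3 was higher in KO, and mt-Co1 and mt-Co3 were past 1.2-fold.

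Complex I genes of mitochondrial DNA summed to a ratio of 1.10 (1.09 to 1.10), cytochrome b (mt-Cytb) stood at 1.12 (1.11 to 1.13) and the complex V genes at 1.17 (1.16 to 1.17). mt-Nd1 had 6173 CPM in KO and 5356 CPM in control (log2 0.20), mt-Nd4 4795 CPM in KO and 4191 CPM in control (log2 0.19), mt-Nd5 436 CPM in KO and 363 CPM in control (log2 0.26) and mt-Nd2 2960 CPM in KO and 2797 CPM in control (log2 0.08). mt-Cytb had 5905 CPM in KO and 5259 CPM in control, and mt-Atp6, part of the proton channel, 11386 CPM in KO and 9705 CPM in control (log2 0.23). The other 4 genes had ratios under 1. Of these, mt-Nd3 had 861 CPM in KO and 1107 CPM in control (log2 -0.36), mt-Atp8 119 CPM in KO and 152 CPM in control (log2 -0.35), mt-Nd4l 217 CPM in KO and 257 CPM in control (log2 -0.25), and mt-Nd6, the only one on the light strand, 9.68 CPM in KO and 11.8 CPM in control (log2 -0.29). mt-Atp8 and mt-Atp6 share a transcript and overlap, as do mt-Nd4l and mt-Nd4, and mt-Atp6 also meets mt-Co3, so the counting of reads between them is uncertain. The sum depends on the limit set on mitochondrial UMIs: with 5% in place of 10%, which leaves 648 KO cells and 1002 control cells, it was 0.951, and with no limit it was 1.22. Of the cells past the eGFP minimum, 7.07% in KO and 2.59% in control were over the 10% limit.

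**Figure D2:**
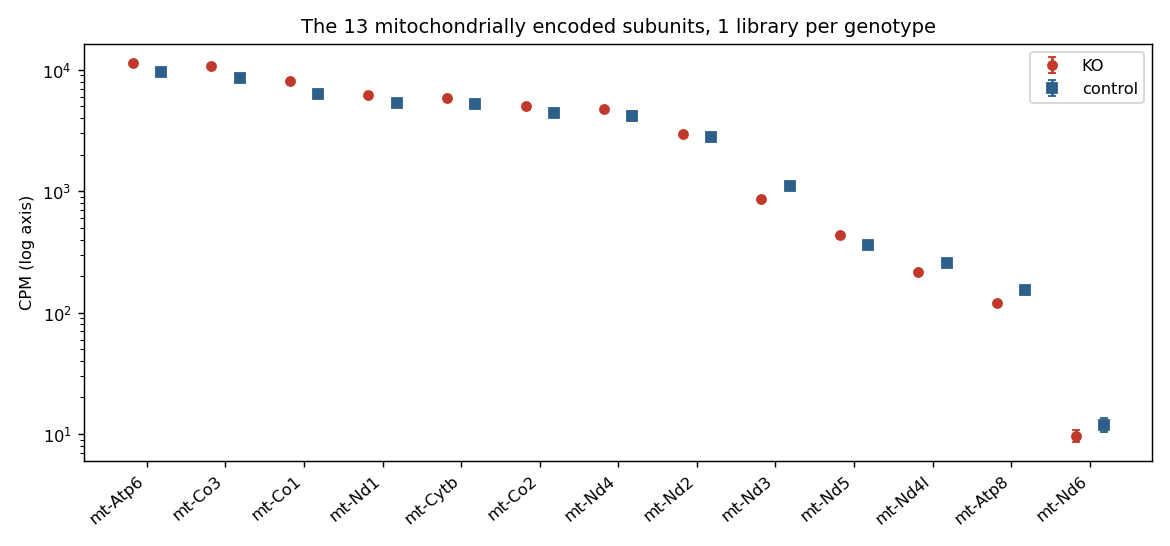
CPM of the 13 mitochondrial genes in KO (red circles) and control (blue squares), on a log axis, with 95% Poisson counting intervals that are mostly smaller than the symbols. KO is above control for 9 genes, and below for mt-Nd3, mt-Nd4l, mt-Atp8 and mt-Nd6.

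Cell by cell, the mitochondrial share of the kept cells differed more than their nuclear share. The mitochondrial share is also the value by which cells were left out, so its upper end is cut off in both libraries. Of the cells past the eGFP minimum, 7.07% in KO and 2.59% in control were over that limit. The mitochondrial shares and the nuclear over mitochondrial values that follow are therefore a description of the kept cells only. The median mitochondrial share of UMIs was 5.73% in KO (quartiles 4.63 and 6.95) and 4.77% in control (4.13 and 5.47). The median share of the nuclear members was 2.41% in KO and 2.40% in control. Nuclear over mitochondrial UMIs had a median of 0.431 in KO and 0.508 in control. Across cells thinned to 5000 UMIs, Spearman's rho of the nuclear share with the share of 16 contractile genes was 0.406 over 1902 KO cells and 0.452 over 1602 control cells. These cells share a library, and shares of 1 total are linked, so the values are a description only.

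The share of contractile genes differed between the libraries, with a median of 2.46% of UMIs in KO and 5.42% in control, so the members were also read at like shares. All kept cells were cut at the quartiles of that share, 2.23%, 4.00% and 5.65%. The 4 ranges, from low to high, held 882, 594, 300 and 143 KO cells and 21, 308, 603 and 760 control cells. They are ranges of a score and not cell types: 868, 1077 and 985 cells lay within 1 percentage point of the cuts. The lowest range rests on 21 control cells. The nuclear subunits were higher where the contractile share was higher, in both libraries, at 22800, 24592, 28781 and 31220 CPM in KO and 20286, 22141, 22857 and 26580 CPM in control. KO was higher in each range, at ratios of 1.12 (1.09 to 1.16), 1.11 (1.10 to 1.12), 1.26 (1.25 to 1.27) and 1.17 (1.17 to 1.18), whereas the ratio over all cells was 1.02. Taken outside the contractile genes, these ratios were 1.12, 1.11, 1.26 and 1.17.

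Nuclear complex IV was higher in KO in every range, at ratios of 1.24, 1.26, 1.39 and 1.302. Complex V had ratios of 1.11, 1.07, 1.197 and 1.14. Complex II had ratios of 0.906 (0.709 to 1.18), 1.05 (0.980 to 1.12), 1.25 and 1.19. Complex I, lower over all cells, had ratios of 1.05 (0.992 to 1.12), 1.02 (1.01 to 1.04), 1.21 (1.19 to 1.22) and 1.10 (1.09 to 1.12). The direction given above for complex I is therefore that of all cells together and does not hold at like contractile share. Ndufv2 had ratios of 1.01, 0.801, 1.03 and 1.01 in the 4 ranges, and Ndufa3 had 0.763, 0.818, 0.947 and 0.795, with intervals that include 1 in the first and the third range. Under KO cells weighted to the control mix of these ranges, other named members under 1 over all cells also passed 1, namely Ndufa11 at 1.03, Sdhb at 1.11, Cox7c at 1.101 and Cox7a2 at 1.07. Under control cells weighted to the KO mix, which leans on 21 control cells, mt-Atp8 stood at 1.03 and mt-Nd4l at 1.17. Past 1.2-fold, the members higher in KO were 41 of 88, 28 of 85, 54 of 87 and 36 of 88 in the 4 ranges, against 25.6%, 22.8%, 25.7% and 27.5% of all genes. Members lower past 1.2-fold were 11, 4, 3 and 6, against 47.1%, 32.2%, 32.9% and 26.5% of all genes. The mitochondrial sum had ratios of 1.44, 1.38, 1.25 and 1.16, highest where the contractile share was low.

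**Figure D3:**
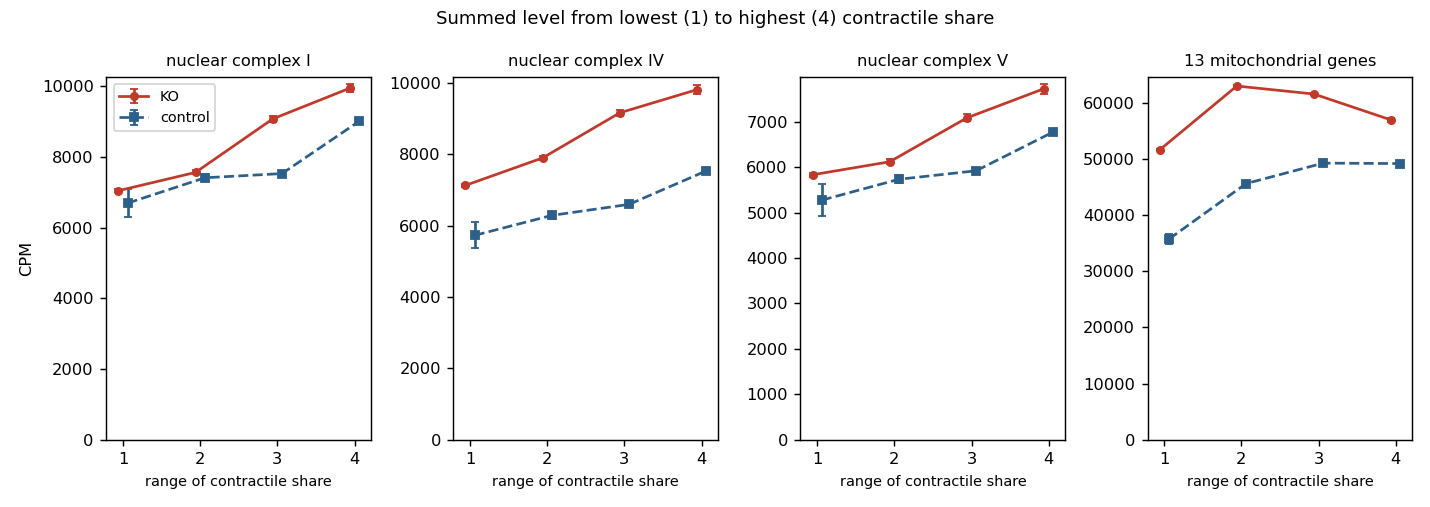
Summed CPM of nuclear complex I, nuclear complex IV, nuclear complex V and the 13 mitochondrial genes (vertical axes, from 0) in the 4 ranges of contractile share from lowest (1) to highest (4), KO in red and control in blue, with 95% Poisson counting intervals. KO lies above control in each panel and range, by the widest relative margin for the mitochondrial genes in range 1, at 1.44, where control has 21 cells.

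Cox5a, Cox6b2 and Cox8b were higher in KO and Cox4i2 was lower in each of these ranges. The ratio of Cox5a was 1.96, 1.72, 2.11 and 2.05. Cox4i2 had ratios of 0.372, 0.335, 0.304 and 0.292. Cox6b2 had ratios of 2.92 (1.25 to 9.02), 3.46 (2.47 to 4.99), 5.08 (3.64 to 7.21) and 9.79 (6.87 to 14.2). Its level was highest where contractile genes were lowest, at 88.5, 43.6, 33.5 and 44.4 CPM in KO and 30.3, 12.6, 6.59 and 4.53 CPM in control. The first control value comes from 5 UMIs. Cox8b was likewise highest in the lowest range, at 10.96, 6.10, 5.96 and 2.36 CPM in KO and had 0 UMIs in each control range. In the lowest range the 21 control cells are too few to bound its ratio above 1, with a lower limit of 0.485. mt-Nd3 had ratios of 0.992, 0.888, 0.750 and 0.720, while mt-Co1 had 1.63, 1.48, 1.31 and 1.26. Both belong to the share by which cells were kept, so these ratios describe the kept cells only. Uqcrc2, lowest of the members at 50 CPM over all cells, had ratios of 1.299 (0.657 to 3.02), 0.832 (0.724 to 0.959), 0.900 (0.799 to 1.01) and 0.936 (0.824 to 1.06). Its difference was thus smaller at like contractile share.

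**Figure D4:**
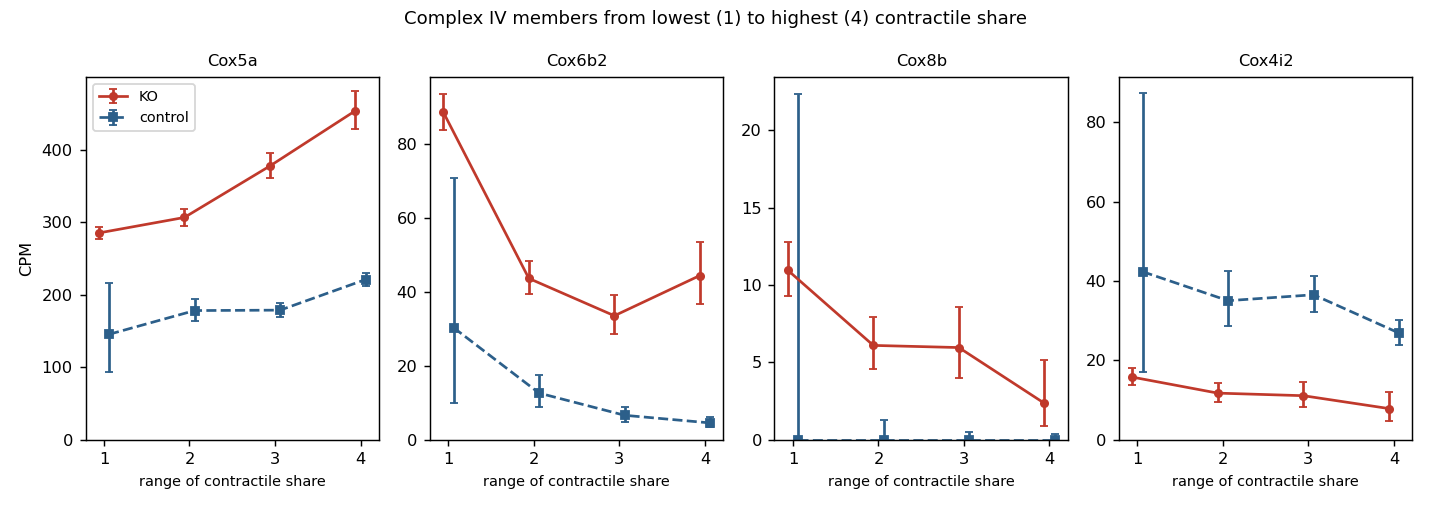
CPM of Cox5a, Cox6b2, Cox8b and Cox4i2 (vertical axes, from 0) in the 4 ranges of contractile share from lowest (1) to highest (4), KO in red and control in blue, with 95% Poisson counting intervals. Cox5a, Cox6b2 and Cox8b lie higher in KO and Cox4i2 lies higher in control in every range; the wide bars in range 1 come from 21 control cells.

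The authors' deposited table gives mean levels per 10000 for clusters they numbered, 9 in all, without the number of cells or any spread. In the authors' deposited table the nuclear complex IV genes summed to 89.9 in KO and 70.0 in control in cluster 0, 78.8 in KO and 66.5 in control in cluster 1, and 72.9 in KO and 65.0 in control in cluster 2. In cluster 4 they summed to 61.9 in KO and 63.8 in control in the authors' deposited table. In cluster 3 the authors' deposited table has them at 81.1 in KO and 57.0 in control. Mean eGFP of cluster 3 was 43.9 in KO and 9.73 in control in the authors' deposited table, so its columns also differ in the label. Nuclear complex I summed to 88.5 in KO and 81.9 in control in cluster 0 of the authors' deposited table. In cluster 1 the authors' deposited table has it at 80.2 in KO and 77.5 in control, and in cluster 2 at 72.0 in KO and 69.6 in control. In cluster 3 it was 82.2 in KO and 57.4 in control, and in cluster 4 68.8 in KO and 79.8 in control, as the authors' deposited table has it. For the mitochondrial genes the authors' deposited table has 401 in KO and 444 in control in cluster 0, 268 in KO and 355 in control in cluster 1, and 381 in KO and 305 in control in cluster 2, so the direction of their sum differed between clusters. In cluster 3 the authors' deposited table has 442 in KO and 349 in control for them, and in cluster 4 425 in KO and 413 in control. Cox8b was 0 in every control column of the authors' deposited table, and in KO in clusters 0 and 4. Cox5a was lower in KO in cluster 4, at 1.39 in KO and 1.93 in control, in the authors' deposited table. It was higher in KO in clusters 0 to 3. For Cox4i2 the authors' deposited table has KO lower in clusters 0, 1 and 4 and higher in clusters 2 and 3. Cox6b2 was higher in KO in clusters 0 to 4 of the authors' deposited table, but nearly level in cluster 4, at 0.199 in KO and 0.186 in control. The cells behind these clusters are grouped otherwise than by contractile range, so the values stand side by side only.

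Genes around the respiratory chain were read from lists of related processes. Of all genes at 50 CPM or more, 12.1% were higher and 14.2% lower past 1.5-fold, the shares to set beside each list's counts. Among 11 electron and metabolite carriers of the mitochondrial membranes at 50 CPM or more, 1 was higher past 1.5-fold and 0 were lower: Atpif1, the inhibitor of ATP synthase running in reverse, had 522 CPM in KO and 301 CPM in control, a ratio of 1.74 (1.68 to 1.79). Cytochrome c (Cycs) had 225 CPM in KO and 186 CPM in control. Among 9 genes at 50 CPM or more of a list of assembly factors, 3 were higher and 1 was lower past 1.5-fold. The list was drawn up for complexes II to V but also holds complex I factors, such as Ecsit and Nubpl. Uqcc2, for complex III, had 278 CPM in KO and 160 CPM in control (1.73), and Cox19, a copper handling protein, 78.3 CPM in KO and 45.0 CPM in control (1.74). Cox17, the copper chaperone of complex IV, had 147 CPM in KO and 250 CPM in control, a ratio of 0.587 (0.563 to 0.611). Sco2, which delivers copper to mt-Co2 protein, had 18 CPM in KO and 8.65 CPM in control, under the minimum. Genes of copper delivery to complex IV therefore did not share a direction.

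Among TCA cycle genes, which supply the electrons, 0 of 12 were higher and 2 were lower past 1.5-fold, a share near the 14.2% of all genes. Past 1.2-fold 1 was higher and 5 were lower, against 26.2% and 29.7% of all genes. The 16 genes of the list summed to 1026 CPM in KO and 1180 CPM in control, a ratio of 0.870 (0.855 to 0.884). Suclg2 had 43.7 CPM in KO and 73.8 CPM in control (0.592), and fumarase (Fh1) 33.4 CPM in KO and 52.7 CPM in control (0.633). With KO cells weighted to the control mix of contractile shares, Suclg2 stood at 0.866 and Fh1 at 0.983. With control cells weighted to the KO mix, which leans on 21 control cells, Suclg2 stood at 0.738 and Fh1 at 0.896. Both differences were thus smaller at like contractile share. The mitochondrial ribosome, which translates the 13 mitochondrial genes, had 2 of 42 higher and 0 lower past 1.5-fold, against 12.1% and 14.2% of all genes. Mrpl34 had 111 CPM in KO and 67.3 CPM in control (1.65), and Mrps6 227 CPM in KO and 76.8 CPM in control (2.95). Mrps6 overlaps Slc5a3 on the same strand, itself at 140 CPM in KO and 22.2 CPM in control, so its count is uncertain. Among 10 import genes 0 were higher and 1 was lower past 1.5-fold, beside the same shares of all genes. The lower one was Tomm6, a small part of the outer membrane channel, with 33.6 CPM in KO and 52.5 CPM in control (0.640). The vacuolar proton pump, a relative of complex V in lysosomes, had 10 of 12 genes higher past 1.2-fold, against 26.2% of all genes. Past 1.5-fold 3 were higher, against 12.1% of all genes. The pump genes summed to 2163 CPM in KO and 1559 CPM in control, a ratio of 1.39 (1.37 to 1.41). The largest ratio there was that of Atp6v1b2, at 57.2 CPM in KO and 24.2 CPM in control (2.36). The ATP synthase of mitochondria and its lysosomal relative thus differed, at summed nuclear ratios of 0.993 for ATP synthase and 1.39 for the lysosomal pump.

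Regulators of mitochondrial biogenesis were low and mixed, with 0 of 3 at 50 CPM past 1.5-fold. Ppargc1a, the coactivator PGC-1 alpha, had 431 UMIs and 14.0 CPM in KO and 66 UMIs and 3.30 CPM in control, a ratio of 4.25 (3.27 to 5.59). Its relative Pprc1 had 16.7 CPM in KO and 10.6 CPM in control (1.58). The transcription factor gene Nrf1 had 12.1 CPM in KO and 15.0 CPM in control (0.806), and Gabpa, an ETS factor known to act on such genes, 15.4 CPM in KO and 18.7 CPM in control (0.822). Gabpa overlaps the member Atp5j on the other strand, so its count is less certain. Esrra, an orphan receptor partner of PGC-1 alpha, had 19.7 CPM in KO and 15.5 CPM in control (1.26). These 5 genes were under the 50 CPM minimum in both libraries, so none of them was called. The ratio of Ppargc1a was 1.33 with control cells weighted to the KO mix of contractile shares, a value that leans on 21 control cells. It was 2.50 with KO cells weighted to the control mix and 3.23 in the 2 middle ranges.

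The promoters of the nuclear members share letters known from such regulators. Of 92 nuclear members, 73 matched the RefSeq promoter table, which holds 27025 genes. Searched on both strands, the NRF1 motif occurred in 9.59% of the members and 1.07% of all genes. The ETS letters CCGGAAG occurred in 23.3% of the members and 9.93% of all genes, the YY1 motif in 6.85% of the members and 0.995% of all genes, the ERR letters AAGGTCA in 10.96% of the members and 5.38% of all genes, and the CRE letters TGACGTCA in 5.48% of the members and 2.03% of all genes. Each was thus more frequent in the members, whose windows also hold more CpGs. The 16 members at 50 CPM or more with the ETS letters had a median log2 ratio of 0.07, and the 48 without it -0.05. The medians with and without the motif were 0.09 and -0.03 for ERR (8 members with it), 0.05 and -0.04 for YY1 (5 members), -0.24 and 0.02 for NRF1 (5 members) and -0.26 and 0.02 for CRE (4 members), so the motifs went both ways, while the quartiles over all members were -0.21 and 0.20.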

How the data were processed

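For each of the 2 libraries the authors deposited raw counts of UMIs for 28000 features in each cell. The submitters' processing notes name build mm10 and the tools Cell Ranger, bcl2fastq and Seurat 2.0, and do not say how cells were called. A further deposited table gives the authors' mean signal per 10000 for 16415 genes in 16 columns of cluster and library, from its values on a linear scale.

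Counts were summed over the kept cells of a library and divided by their total to give CPM. A gene was called higher or lower from a KO over control ratio of 1.5 or 1.2 upward, or its inverse, at 50 CPM or more in at least 1 library. Ratios have exact conditional binomial intervals, shares of cells or UMIs Clopper-Pearson intervals and levels exact Poisson intervals, all at 95% and for counting error only. A count of 0 was set against a floor of 3 counts per library, 0.0975 CPM in KO and 0.150 CPM in control. For shares of cells with a UMI, cells were thinned to 5000 UMIs, leaving 1902 KO and 1602 control cells, and 70 eGFP-negative control cells with at most 1 eGFP UMI. The ratio and its interval were tested on simulated data. Positions are from GENCODE M21, build mm10, in which 27722 identifiers were found; near-identical pseudogene copies may take some reads. Alternatives changed the filters, the denominator, the scaling (edgeR 4.0.16 TMM factors, or the median ratio over genes), the weight of cells, the contractile mixture and the minimum level. Scrublet in scanpy 1.11.5 called 0 KO and 1 control cell, too few to count as a working call, so doublets stayed in. Python 3.11.15, numpy 2.4.6, pandas 2.3.3 and scipy 1.17.1 were used.

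Members, gene lists and tests were chosen with earlier results of these data known. Named genes were all mitochondrial members, the most abundant member and up to 3 at either end of the ratio per complex, members past 1.5-fold, paralog sets, and up to 3 genes at either end of each other list at 10 CPM or more. Ndufs1, Cox6c, Ndufaf3 and Ndufaf4, and the overlapping partners, were named after their values were seen.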

Additional observations from a re-analysis of the deposited data

Results flagged for a closer look

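The cells with at least 5 eGFP UMIs that were left out for more than 10% mitochondrial UMIs showed a wider gap between the libraries in the summed nuclear subunits than the kept cells did. They were 146 KO cells with a median of 9475.5 UMIs and 45 control cells with a median of 4353 UMIs. These cells enter only the alternatives with a higher mitochondrial limit or none, and the nuclear members' summed levels in KO stood above those in control. The nuclear subunits summed to 20047 CPM in KO and 11643 CPM in control, a ratio of 1.72 (1.65 to 1.79). The ratio was 1.62 for nuclear complex I, 1.85 for complex III, 1.98 for complex IV and 1.55 for complex V. The mitochondrial genes summed to 145553 CPM in KO and 176083 CPM in control in the same cells, which is the value that selected them and is given as a description only. The genotypes differ in depth here, and the part of depth in these ratios was not tested.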

How the results depend on the processing

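With 1 library per genotype no replicate could be left out, and every interval covers counting error only. No paired analysis was possible because each genotype has 1 library. Values under the alternatives follow; where a value moved, the cause was not tested. Nuclear complex IV stayed above 1 in all 16 alternatives that changed cells, scaling or weights, from 1.12 to 1.32. Cox5a ran from 1.52 to 2.03, Cox6b2 from 3.27 to 12.4 and Cox4i2 from 0.305 to 0.462. Nuclear complex I ran from 0.929 to 1.12, above 1 in 3 of 16. Weighting control cells to the KO ranges and using only the 2 middle ranges were chosen after seeing the data. The weighting of control cells leans on the 21 of them in the lowest range. Members higher past 1.2-fold numbered 15, but 27 outside the 20 most abundant genes, 44 with KO weighted to control contractile ranges, 37 with control weighted to KO ranges and 38 in the middle ranges; lower ones numbered 13, but 3, 5 and 2 under the last 3. Of all genes, 25.1%, 22.9% and 23.3% were higher and 28.9%, 38.3% and 29.3% lower under those 3. Outside the 20 most abundant genes, 32.7% of all genes were higher and 22.8% lower past 1.2-fold, and the median log2 ratio of all genes was 0.07; with control weighted it was -0.11. Members higher past 1.5-fold numbered 2, but 6 with control weighted, 1 in the middle ranges, 4 with no minimum level and 1 at a minimum of 200 CPM, against 11.01%, 8.98%, 28.3% and 12.4% of all genes; lower ones numbered 0, but 1 at a 5% mitochondrial limit, with TMM, with the median ratio, with cells weighted equally and at a minimum of 10 CPM, and 2 with no minimum, against 16.3%, 14.6%, 14.5%, 13.4%, 11.4% and 19.3% of all genes. The mitochondrial sum, 1.17, was 0.951 at a 5% limit, 1.21 at 20% and 1.22 with no limit. It was 1.16 at 20 eGFP UMIs, 1.204 with no eGFP minimum and 1.18 outside mitochondrial UMIs. By scaling it was 1.16 with TMM and the median ratio, 1.24 outside the top 20 genes, 1.199 with equal weights and 1.197 when thinned. By contractile mix it was 1.22 with KO weighted, 1.36 with control weighted and 1.297 in the middle ranges. The nuclear sum, 1.02, was 1.02 at a 5% limit and outside mitochondrial UMIs, and 1.03 at 20 eGFP UMIs and with no eGFP minimum. It was 1.01 with TMM, the median ratio and thinning, and 1.08 outside the top 20 genes. By contractile mix it was 1.19 with KO weighted, 1.15 with control weighted and 1.15 in the middle ranges.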
